A study of Mus musculus with 15 samples.

Results

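The subject is the presynaptic vesicle release machinery, 44 genes whose proteins store neurotransmitter in synaptic vesicles, dock and prime the vesicles and fuse them with the plasma membrane. The genes were chosen by name, with earlier results of these data known. Each was matched by its symbol to 1 Ensembl identifier on GRCm38, and all 44 were found among the 33223 genes of each count table. They were followed in bulk RNA sequencing of mouse cortex 1 day after a moderate controlled cortical impact, a mechanical injury, to the right parietal cortex. All mice carried a floxed EphA4 gene (EphA4f/f). KO mice also carried VeCadCreERT2, a Cre recombinase that is active after tamoxifen and is driven by the promoter of VE-cadherin, a gene of endothelial cells. WT mice are the EphA4f/f-WT animals of the labels, in which the gene is kept. Injured cortex was made into a cell suspension and put through microbeads against CD45 and CD31, a leukocyte and an endothelial surface protein, and 2 fractions were sequenced. The comparisons used 3 KO and 4 WT flow-through libraries, labelled as all other cortical cells, and 4 KO and 3 WT CD45 libraries, labelled as immune cells. The labels used here state neither age nor which libraries share an animal, and the p-values therefore reflect only how these libraries vary, part of which may be technical.

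At a presynaptic terminal, vesicles are filled by transporters, held in clusters by synapsins and tethered at the active zone by scaffolds such as RIM, liprin-alpha, Bassoon and Piccolo. Proteins of the Unc13 family prime them, the SNARE proteins of vesicle and plasma membrane pull the membranes together, and complexins hold and promote fusion. Calcium that enters with the action potential is sensed by synaptotagmins and related proteins, which trigger release. In cortex these genes are expressed mainly by neurons, and some members also serve secretion and membrane traffic in other cells.

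Total counts ran from 11574414 to 31337948 per library. Levels are given as CPM, the count divided by the library total and scaled to 1e6 reads. Epha4 lay at 36 to 42.2 CPM in flow-through KO and 38.5 to 43 CPM in flow-through WT libraries, and at 1.69 to 3.54 CPM in CD45 KO and 2.7 to 2.92 CPM in CD45 WT libraries. Neither fraction is an endothelial isolate, so these levels do not check the deletion. The flow-through held neuron, astrocyte and oligodendrocyte markers, and Ptprc, which encodes CD45, did not exceed 1.22 CPM there, against 805 CPM or more in the CD45 libraries. A further library goes against its label, which says flow-through WT (replicate 5), since its counts were deposited with the CD45 fraction. Its 13 microglia and leukocyte markers summed to 10170 CPM, against 12.7 to 17 CPM in the 4 flow-through WT libraries used. It was left out of every value below unless named.

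In the flow-through, many genes of the release machinery were higher in KO than in WT libraries. Of the 44 members, all of which were tested, 19 rose, none fell and 25 did not pass, at a Benjamini-Hochberg adjusted p under 0.05 in edgeR's quasi-likelihood test over all 16546 genes. Over all genes tested 1.57% were called, 1.42% rose and 0.151% fell. The members had a median log2 fold change of 0.57, with 41 of 44 above 0 (48.3% of all genes), while the median of all genes tested was -0.01. In 24 members every KO library lay above every WT library, and no member was separated the other way. Of all genes tested 5.19% were separated with KO higher and 6.78% with KO lower. Because the members were chosen with earlier results of these data known, these shares describe the list and do not test it. Changes on the log2 scale are given as KO over WT, with ± for the SE of the fit. Each member would have passed the filter on low counts from its WT libraries alone. In bulk RNA, more neurons and more RNA per neuron cannot be told apart.

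**Figure D1:**
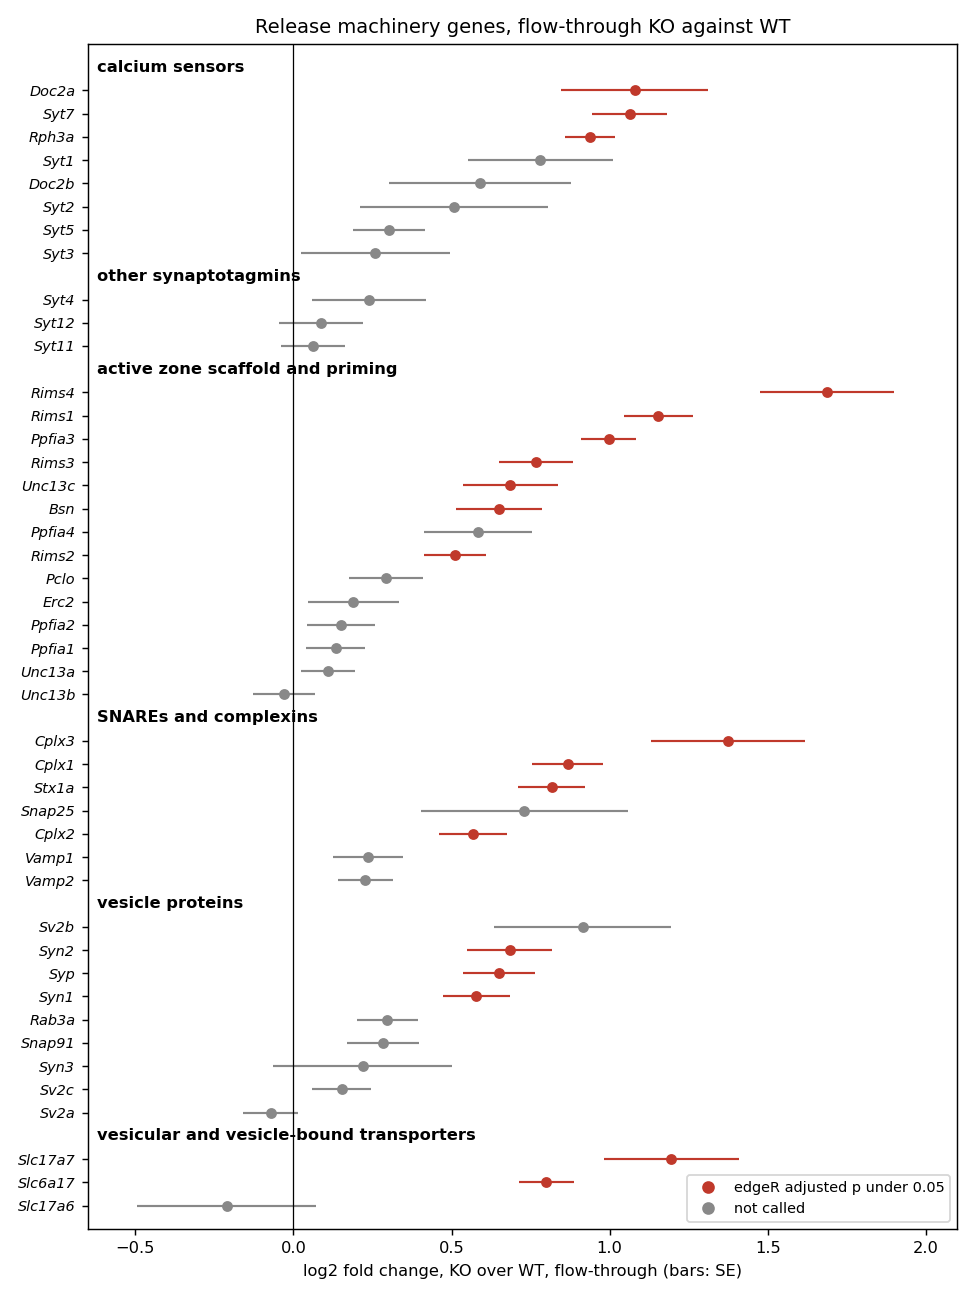
Log2 fold change of KO over WT in the flow-through for each of the 44 members (x axis), grouped by role, with SE bars, from 3 KO and 4 WT libraries. Red points passed the edgeR test (19 members) and grey points did not (25). The called members lie between 0.51 (Rims2) and 1.69 (Rims4).

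In the active zone scaffolds and priming factors, the largest group of members, 7 of 14 were called. All 4 RIM genes rose. Rims1, whose long protein links Rab3 on vesicles to Unc13 proteins and calcium channels, had 150.4, 135 and 106 CPM in KO libraries, against 59.9, 60.6, 57.5 and 61.4 CPM in WT libraries, a log2 change of 1.15 ± 0.11 with an edgeR adjusted p of 0.000371. The lowest KO library stood well above the WT libraries, which lay within a few CPM of each other. Rims2, the other long RIM, had 63.6, 53.1 and 51.5 CPM in KO libraries, against 35.9, 41.3, 41.5 and 41.6 CPM in WT libraries, a log2 change of 0.51 ± 0.10 with an edgeR adjusted p of 0.0173. Rims3 and Rims4 encode short RIM proteins that keep only the end of the long forms. Rims4 had 17.6, 15.7 and 10.5 CPM in KO libraries, against 4.4, 4.24, 3.43 and 6.34 CPM in WT libraries, a log2 change of 1.69 ± 0.21 with an edgeR adjusted p of 0.00156 and the largest of any member. Its groups did not overlap, and KO replicate 3 was the lowest of the KO libraries, as it was for Rims1. Rims3 had 31.1, 25 and 24.7 CPM in KO libraries, against 16.6, 16.8, 13.5 and 17.6 CPM in WT libraries, a log2 change of 0.77 ± 0.12 with an edgeR adjusted p of 0.00449.

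Of the 4 liprin-alpha genes, which organise the active zone, only Ppfia3 rose, with 120.0, 116 and 115 CPM in KO libraries, against 60.4, 66.2, 57.2 and 54.8 CPM in WT libraries, a log2 change of 1.00 ± 0.09 with an edgeR adjusted p of 0.000283. Its KO libraries differed among themselves by less than the gap to the WT libraries. Ppfia4 also had every KO library above every WT library, with a mean of 6.04 ± 0.662 CPM over 3 KO and of 4.11 ± 0.681 CPM over 4 WT libraries (SD), but did not pass (log2 change of 0.58 ± 0.17 with an edgeR adjusted p of 0.156). Ppfia1, which is broadly expressed, and Ppfia2 had log2 changes of 0.13 ± 0.09 and 0.15 ± 0.11 with overlapping groups. Whether the liprin-alpha genes differ from each other in their response was not tested.

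Bsn, which encodes the giant scaffold Bassoon, had 61.4, 50.1 and 53 CPM in KO libraries, against 27.2, 40.9, 31.3 and 43.4 CPM in WT libraries, a log2 change of 0.65 ± 0.14 with an edgeR adjusted p of 0.0337. Pclo, which encodes the related Piccolo, had overlapping groups and did not pass (log2 change of 0.29 ± 0.12 with an edgeR adjusted p of 0.359), and neither did the scaffold gene Erc2 (log2 change of 0.19 ± 0.15 with an edgeR adjusted p of 0.701). Among the priming factors, Unc13c, a gene best known from the cerebellum, had 54.2, 36.7 and 33.3 CPM in KO libraries, against 25.6, 26.6, 27.9 and 24.6 CPM in WT libraries, a log2 change of 0.69 ± 0.15 with an edgeR adjusted p of 0.0479, and KO replicate 1 was well above the others of its group. Unc13a and Unc13b, whose products prime vesicles at cortical synapses, overlapped between genotypes. Unc13a had a mean of 35.5 ± 1.85 CPM over 3 KO and of 33.5 ± 2.23 CPM over 4 WT libraries (SD). Unc13b had a mean of 37 ± 0.783 CPM over 3 KO and of 38.6 ± 5.02 CPM over 4 WT libraries (SD).

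The calcium sensors had 3 called members of 8. Rph3a, which encodes rabphilin, a partner of Rab3, had 157, 143 and 146 CPM in KO libraries, against 78.2, 83.7, 76.7 and 77.5 CPM in WT libraries, a log2 change of 0.94 ± 0.08 with an edgeR adjusted p of 0.000283. The WT libraries were tightly grouped and all KO libraries stood far above them. Syt7, the slow sensor of asynchronous release, had 26.4, 25 and 20.6 CPM in KO libraries, against 12.4, 11.1, 10.8 and 12.6 CPM in WT libraries, a log2 change of 1.06 ± 0.12 with an edgeR adjusted p of 0.000551. Doc2a, a sensor linked to spontaneous and asynchronous release, had 4.6, 3.54 and 4.47 CPM in KO libraries, against 2.3, 2.21, 1.24 and 2.36 CPM in WT libraries, a log2 change of 1.08 ± 0.23 with an edgeR adjusted p of 0.0343. Doc2a is an uncertain value, because 39.4% of its exon sequence overlaps Ino80e on the opposite strand and the strand setting of the counting is not given in the sources used here. Syt1, the fast sensor of synchronous release in forebrain neurons, had 75.7, 72.2 and 54.4 CPM in KO libraries, against 52.4, 30.8, 29.1 and 47.4 CPM in WT libraries. Its lowest KO library exceeded its highest WT library by a small margin, and it did not pass (log2 change of 0.78 ± 0.23 with an edgeR adjusted p of 0.223). Syt5 was also separated without passing (log2 change of 0.30 ± 0.11 with an edgeR adjusted p of 0.308), while Syt2, Syt3 and Doc2b were at low levels and overlapped. The synaptotagmins without classical calcium sensing, Syt4, Syt11 and Syt12, had log2 changes of 0.24 ± 0.18, 0.06 ± 0.10 and 0.09 ± 0.13 and did not pass, and Syt11 was the most abundant member per length. Syt7, Syt4 and Syt12 share 5.13%, 14.5% and 17.2% of their exon sequence with genes on the opposite strand, and Ppfia2 among the liprins 24.5%, which makes these values less certain.

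**Figure D2:**
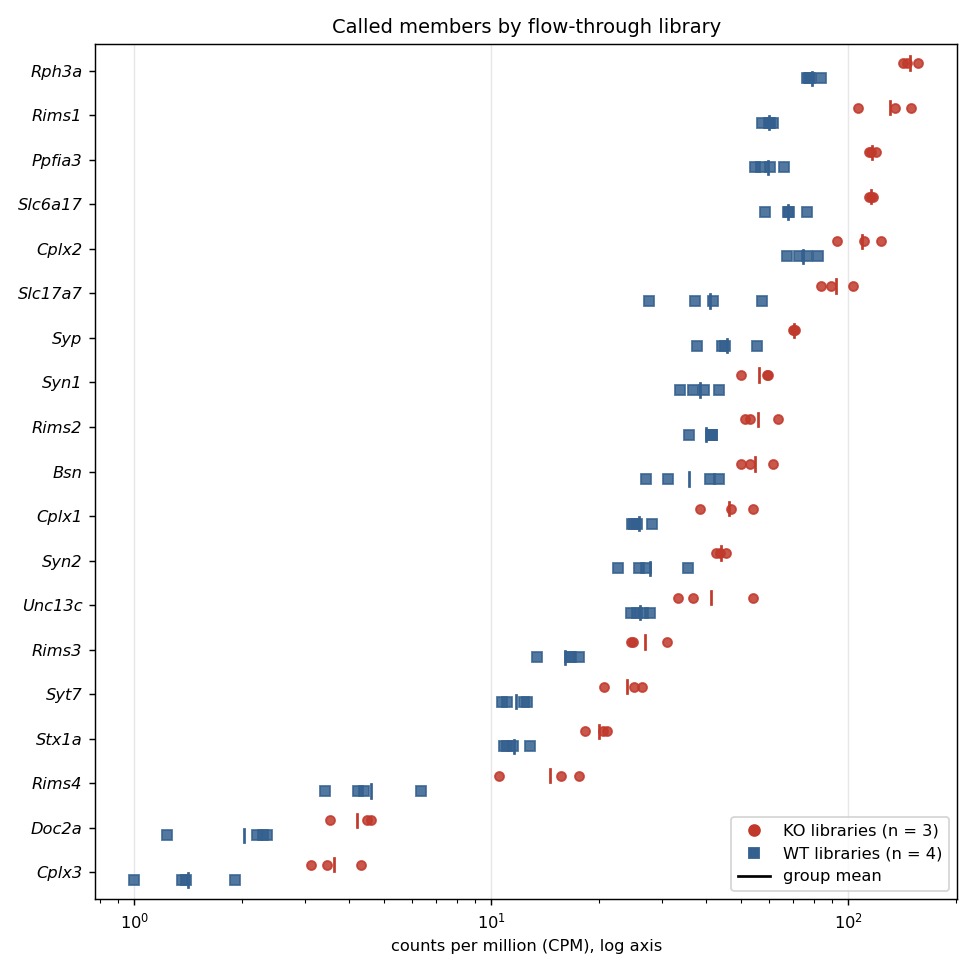
CPM of the 19 called members in each flow-through library (x axis, log scale), with KO libraries as red circles above WT libraries as blue squares and a line at each group mean. In each gene the 3 KO libraries lie to the right of the 4 WT libraries, from 3.12 CPM or more against at most 1.91 CPM for Cplx3 to 143 CPM or more against at most 83.7 CPM for Rph3a.

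Of the fusion proteins and their regulators, 4 of 7 rose, and all 3 complexin genes were among them. Cplx3, a complexin known from retinal ribbon synapses and deep cortical neurons, had 3.46, 4.32 and 3.12 CPM in KO libraries, against 1.36, 1.4, 0.999 and 1.91 CPM in WT libraries, a log2 change of 1.37 ± 0.24 with an edgeR adjusted p of 0.0114. It is a low gene whose WT libraries did not exceed 1.91 CPM. Cplx1 had 54.2, 46.9 and 38.4 CPM in KO libraries, against 25.7, 24.7, 25.2 and 28.2 CPM in WT libraries, a log2 change of 0.87 ± 0.11 with an edgeR adjusted p of 0.00156. Cplx2 had 123, 111 and 92.9 CPM in KO libraries, against 82.6, 73, 67.6 and 76.6 CPM in WT libraries, a log2 change of 0.57 ± 0.11 with an edgeR adjusted p of 0.0175. These are the main complexins of forebrain neurons, and neither overlapped between genotypes. Stx1a, a SNARE of the plasma membrane, had 20.6, 18.3 and 21 CPM in KO libraries, against 11.5, 11.1, 10.8 and 12.8 CPM in WT libraries, a log2 change of 0.82 ± 0.11 with an edgeR adjusted p of 0.00156. Snap25, the partner SNARE and one of the most abundant members, had 230.4, 202 and 123 CPM in KO libraries, against 164, 97, 76 and 118 CPM in WT libraries. Here the groups overlapped, since WT replicate 1 exceeded KO replicate 3, and the test was not passed (log2 change of 0.73 ± 0.33 with an edgeR adjusted p of 0.503). The vesicle SNARE genes Vamp2 (log2 change of 0.23 ± 0.09 with an edgeR adjusted p of 0.321) and Vamp1 (log2 change of 0.24 ± 0.11 with an edgeR adjusted p of 0.467) did not pass, although all KO libraries lay above all WT libraries for Vamp2.

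Among the vesicle proteins 3 of 9 rose. Syp, which encodes the vesicle membrane protein synaptophysin, had 71, 69.9 and 70.5 CPM in KO libraries, against 55.6, 45.2, 37.6 and 44.4 CPM in WT libraries, a log2 change of 0.65 ± 0.11 with an edgeR adjusted p of 0.0112. Its KO libraries were nearly identical. The synapsins tether vesicles into a reserve cluster. Syn1 had 59.7, 59.1 and 50.2 CPM in KO libraries, against 43.5, 36.8, 33.8 and 39.5 CPM in WT libraries, a log2 change of 0.58 ± 0.11 with an edgeR adjusted p of 0.0134. Syn2 had 45.4, 43.7 and 42.6 CPM in KO libraries, against 35.6, 27.2, 22.6 and 25.9 CPM in WT libraries, a log2 change of 0.68 ± 0.13 with an edgeR adjusted p of 0.0219. The exons of both share 0.273% and 1.28% of their sequence with genes on the opposite strand, and those of Syp share 16.8% with a predicted gene, which leaves Syp the more uncertain value. Syn3, whose exons overlap Timp3 over 14.1% of their length, did not pass (log2 change of 0.22 ± 0.28 with an edgeR adjusted p of 0.844). None of the 3 Sv2 genes passed. These encode the vesicle glycoproteins to which the drug levetiracetam binds in the case of Sv2a. Sv2a (-0.07 ± 0.09) and Sv2c (0.15 ± 0.09) had log2 changes near 0. Sv2b had a larger one with wide scatter, at 39.9, 34.4 and 27.8 CPM in KO libraries, against 27.9, 15, 12.1 and 18.5 CPM in WT libraries (log2 change of 0.91 ± 0.28 with an edgeR adjusted p of 0.259). The vesicle GTPase gene Rab3a, whose groups did not overlap (0.30 ± 0.10), and the clathrin adaptor gene Snap91 (0.28 ± 0.11) did not pass.

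Of the transporters, 2 of 3 rose. Slc17a7, which loads glutamate into vesicles of cortical excitatory neurons, had 103, 89.6 and 84.2 CPM in KO libraries, against 57.3, 37.2, 27.7 and 41.9 CPM in WT libraries, a log2 change of 1.19 ± 0.21 with an edgeR adjusted p of 0.0343. The WT libraries varied over a wide range, but the lowest KO library was still above the highest of them. Slc6a17, a transporter that loads neutral amino acids into vesicles, had 114, 117 and 116 CPM in KO libraries, against 67.8, 68.4, 58.7 and 76.6 CPM in WT libraries, a log2 change of 0.80 ± 0.09 with an edgeR adjusted p of 0.000551. Its KO libraries were within a few CPM of each other. Slc17a6, the glutamate transporter of subcortical neurons, was low, with a mean of 1.7 ± 0.511 CPM over 3 KO and of 2.0 ± 0.469 CPM over 4 WT libraries (SD) (log2 change of -0.21 ± 0.28 with an edgeR adjusted p of 0.848).

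The call did not rest on the same libraries for every member. Of the 19, 9 passed in each of the 7 fits that left out 1 library, namely Cplx1, Ppfia3, Rims1, Rims3, Rims4, Rph3a, Slc6a17, Stx1a and Syt7. Doc2a passed in none of them, Syn2 and Unc13c in 1, and Bsn and Slc17a7 in 2. The count of called members was 11 without KO replicate 1, 11 without KO replicate 2 and 10 without WT replicate 2. When the flow-through WT library that goes against its label was added to its labelled group, 0 members and 0 of all genes were called. Its leukocyte markers were at CD45 levels, so that fit mixed fractions within a group and cannot show how stable the calls are. In a joint fit of the 14 libraries only Syt7 was called, with 26 of all genes higher and 4 lower.

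The sequences before the start sites of 5 called members are shown because these genes rose together and stand for different roles, the scaffolds Rims1 and Ppfia3, the complexin Cplx3, the glutamate transporter Slc17a7 and the synapsin Syn1. Each is the 250 bases before the RefSeq start on the coding strand in GRCm38.p6, written 5′ to 3′. For Rims1 and Slc17a7 the bases just after that start were not found in a GENCODE transcript of the gene, so these starts are less certain. Capitals mark matches on either strand to a GC box (GGGCGG), a cyclic AMP response element (TGACGTCA), an EGR site (GCGTGGGCG), the core of an NRF1 site (CGCATGCG) or a TATA box (TATAAA), with overlapping matches both marked.
Rims1: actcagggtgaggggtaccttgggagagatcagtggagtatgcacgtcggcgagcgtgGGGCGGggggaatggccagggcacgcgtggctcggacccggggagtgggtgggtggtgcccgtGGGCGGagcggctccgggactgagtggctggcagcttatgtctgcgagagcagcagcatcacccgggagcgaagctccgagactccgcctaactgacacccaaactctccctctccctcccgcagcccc
Ppfia3: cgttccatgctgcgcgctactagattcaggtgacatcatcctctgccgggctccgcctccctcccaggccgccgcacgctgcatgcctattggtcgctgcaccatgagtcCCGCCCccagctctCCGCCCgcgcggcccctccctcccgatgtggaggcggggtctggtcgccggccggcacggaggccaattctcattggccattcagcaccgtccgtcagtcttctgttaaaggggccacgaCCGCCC
Cplx3: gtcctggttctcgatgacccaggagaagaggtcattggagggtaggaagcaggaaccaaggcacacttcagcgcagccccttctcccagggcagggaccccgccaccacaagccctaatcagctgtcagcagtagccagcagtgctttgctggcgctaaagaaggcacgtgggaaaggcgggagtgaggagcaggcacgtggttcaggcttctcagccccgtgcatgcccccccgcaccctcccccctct
Slc17a7: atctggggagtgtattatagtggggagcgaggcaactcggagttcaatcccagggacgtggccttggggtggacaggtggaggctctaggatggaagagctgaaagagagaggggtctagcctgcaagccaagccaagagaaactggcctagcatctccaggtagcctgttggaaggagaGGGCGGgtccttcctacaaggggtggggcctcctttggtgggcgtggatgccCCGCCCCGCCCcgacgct
Syn1: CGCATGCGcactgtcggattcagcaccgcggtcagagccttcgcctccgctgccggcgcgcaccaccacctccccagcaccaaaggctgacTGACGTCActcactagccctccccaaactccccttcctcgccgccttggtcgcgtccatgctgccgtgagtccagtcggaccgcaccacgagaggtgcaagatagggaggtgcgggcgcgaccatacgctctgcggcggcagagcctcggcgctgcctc
The windows are chr1:22806159-22806408 on the minus strand for Rims1, chr7:45367020-45367269 on the minus strand for Ppfia3, chr9:57606282-57606531 on the minus strand for Cplx3, chr7:45163671-45163920 on the plus strand for Slc17a7 and chrX:20920919-20921168 on the minus strand for Syn1. They are rich in G and C, from 61.2% in Slc17a7 to 68% in Rims1 and Syn1. The window of Syn1 holds the NRF1 core at its far end and the response element, which stands in none of the other windows of members and in 1.55% of all 32851 windows of that table. A GC box stands in Rims1, Ppfia3 and Slc17a7, and Cplx3 holds none of the motifs. RefSeq windows were found for 33 of the 44 members. Of the 19 windows of called members 10 hold a GC box, as do 16 of the 26 windows of members that were not called and 32.7% of all windows. The TATA box is in 0 of 19 windows of called members, in 2 of 26 of the others and in 12.4% of all windows. The EGR site is in 0 of 19, 1 of 26 and 0.536%, and the NRF1 core in 2 of 19, 1 of 26 and 1.55%. The median GC content of the windows was 61.2% for called members, 61% for the others and 52.4% for all. A match describes the letters and not a bound factor.

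Further genes of release and of the vesicle cycle showed the same direction in part. Of 47 other release genes 45 were tested, 4 rose and none fell, with a median log2 fold change of 0.10. Among them were the synaptotagmin gene Syt13 (log2 change of 0.85 ± 0.12 with an edgeR adjusted p of 0.00339) and Rimbp2, whose product links RIM proteins to calcium channels (log2 change of 0.90 ± 0.14 with an edgeR adjusted p of 0.00508). Rimbp2 had 18.9, 17.2 and 19 CPM in KO libraries, against 11.4, 7.71, 10.2 and 10.8 CPM in WT libraries. Nrxn2 (log2 change of 0.29 ± 0.08 with an edgeR adjusted p of 0.121) and the SNARE-recycling ATPase gene Nsf (log2 change of 0.32 ± 0.10 with an edgeR adjusted p of 0.173) followed without passing. Of 27 genes of the vesicle cycle and endocytosis 26 were tested, 4 rose and none fell, with a median of 0.10. Dnm1, the dynamin of neurons, had 92.2, 80.0 and 76 CPM in KO libraries, against 51.2, 45.8, 42.8 and 58.4 CPM in WT libraries, a log2 change of 0.77 ± 0.11 with an edgeR adjusted p of 0.00243. The others were the vesicle protein gene Syngr1 (0.66 ± 0.11), the proton pump subunit Atp6v1g2 (0.83 ± 0.14) and the endocytic adaptor Pacsin1 (0.43 ± 0.09). The synuclein gene Sncb (log2 change of 0.73 ± 0.17 with an edgeR adjusted p of 0.0587) and the endophilin gene Sh3gl2 (log2 change of 0.35 ± 0.11 with an edgeR adjusted p of 0.181) did not pass. The shares that rose, 4 of 45 and 4 of 26, stand beside the 1.42% of all genes.

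A few neuron markers were also called between genotypes in the flow-through. The 11 excitatory neuron markers summed to 323 to 532 CPM in KO and 171 to 272 CPM in WT libraries without overlap. Of the 10 tested, Cux2 rose (log2 change of 0.50 ± 0.10 with an edgeR adjusted p of 0.027). Log2 changes were above 0 in 7 of the 10 and below 0 in Rorb, Foxp2 and Ccn2. Most of the summed excitatory level in KO libraries is Camk2a, a kinase of excitatory neurons, at 398, 315 and 194 CPM in KO libraries, against 84.5, 68.8, 64.9 and 136 CPM in WT libraries (log2 change of 1.81 ± 0.34 with an edgeR adjusted p of 0.0832). Without Camk2a the sums overlapped, at 129 to 134 CPM in KO and 106 to 136 CPM in WT libraries. Of the 15 general neuron markers, the neuronal chloride exporter gene Slc12a5 (log2 change of 1.03 ± 0.14 with an edgeR adjusted p of 0.00166) and the postsynaptic gene Nrgn (log2 change of 1.22 ± 0.22 with an edgeR adjusted p of 0.0418) were called higher, and 13 were not called. Of the 15, 12 had log2 changes above 0 (48.3% of all genes) and 3 below 0, with a median of 0.44. In 6 of them every KO library lay above every WT library, and in 0 below (5.19% and 6.78% of all genes). Map2 and Elavl3, the most abundant, had log2 changes of 0.05 ± 0.11 and 0.002 ± 0.08. The summed level of the 15 overlapped, at 1292 to 1527 CPM in KO and 1210 to 1341 CPM in WT libraries. Among 8 tested of 10 interneuron markers Gad2 fell (log2 change of -0.42 ± 0.10 with an edgeR adjusted p of 0.0494), while 5 of the 8 had log2 changes above 0, with a median of 0.21. In Sst (1.34 ± 0.34), Npy (0.86 ± 0.23) and Pvalb (0.34 ± 0.13), none of them called, every KO library lay above every WT library. In 1 of the 8 every KO library lay below (5.19% and 6.78% of all genes). The summed interneuron level was 249 to 278 CPM in KO and 288 to 349.7 CPM in WT libraries. The 8 neuroblast markers all had negative fold changes with none called, and summed to 1228 to 1321 CPM in KO and 1416 to 1792 CPM in WT libraries. In 3 of them every KO library lay below every WT library, and in 0 above. None of these neuron markers was at 0. None was called of the 9 astrocyte, 8 oligodendrocyte, 5 oligodendrocyte precursor, 5 ependymal and 8 endothelial markers, of the 2 platelet markers tested of 6 or of the 10 leukocyte markers tested of 13. The 8 endothelial markers summed to 41.1 to 58.7 CPM in KO and 45.1 to 61 CPM in WT libraries, with 7 fold changes below 0, and the summed levels of the 9 astrocyte and 8 oligodendrocyte markers overlapped between genotypes. The 13 leukocyte markers summed to 16.2 to 18.1 CPM in KO and 12.7 to 17 CPM in WT libraries, with Ly6c2 at 0. Among 14 immediate early and dissociation stress genes, Egr4 (1.69 ± 0.24) and Arc (0.58 ± 0.09), which neuronal activity induces, rose and 12 were not called. The list as a whole had 6 log2 changes above and 8 below 0, a median of -0.09, and sums of 2740 to 3581 CPM in KO and 2965 to 3643 CPM in WT libraries. The part of these markers in the change of the release machinery was not tested.

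The members that rose were richer in G and C than those that did not. The median GC content of the longest transcript was 55.9% for the 19 called members, 47.8% for the other 25 and 49.6% for all genes tested. Over all genes the median log2 fold change went with GC content, at -0.11 below 45% and 0.15 at 60% or more, and the share called higher with it, at 0.139% and 7.5%. From 55% to 60% GC, 3.47% of all genes rose, and 9 of 16 members. The members were above the median of all genes in each of the 5 GC bands, by the least below 45%, where 5 members had a median of 0.15 and none was called. KO replicate 3 had the strongest tilt toward GC-rich genes. The median deviation of the GC-richest genes minus that of the GC-poorest was 0.45 log2 units in it, and -0.05 to 0.02 in the other KO and -0.20 to 0.06 in the WT libraries. Without that library 15 members were called. With a GC and length trend removed from each library, 14 of the 19 remained called and no other member was added. Cplx2, Syn1, Syn2, Doc2a and Slc17a7 no longer passed, and the median log2 fold change of the members was 0.46.

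**Figure D3:**
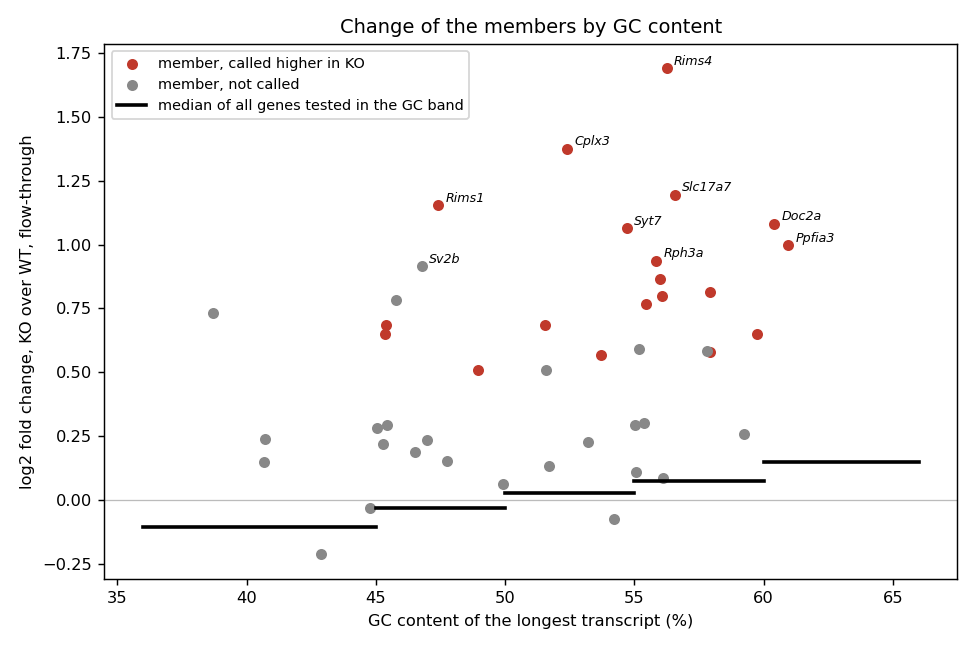
Log2 fold change of KO over WT in the flow-through (y axis) against the GC content of the longest transcript in percent (x axis) for the 44 members, with called members in red. Black lines give the median of all genes tested in each GC band, from -0.11 to 0.15, and the called members lie above them throughout.

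Levels between genes were compared per kilobase of exon, as the median CPM per kilobase over the 7 libraries of a fraction. In the flow-through Syt11 was highest, at 230.2 (212 to 249 over libraries), followed by Syt4 at 52.7 (43.7 to 81.5), Vamp2 at 48.5 (42.8 to 54.8) and Sv2a at 45.3 (40.0 to 51.4). Syt11 was separated from the next by more than the spread of either, while the ranges of Syt4, Vamp2 and Sv2a overlap. Snap25 (18.2), Rph3a (18), Cplx2 (16.8), Rab3a (15.3), Syn1 (13.2) and Cplx1 (12.9) formed the next group. Slc17a7 (10.6) stood far above Slc17a6 (0.317). The lowest were Doc2b (0.25), Syn3 (0.236) and Syt2 (0.116), a synaptotagmin best known from fast inhibitory and brainstem synapses. The members that rose ran from Cplx3 at 0.647 to Rph3a, and the 4 most abundant members did not pass.

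Most of the release machinery was far higher in the flow-through. In the test of flow-through over CD45 levels, with 7 libraries each, 41 members were higher in the flow-through and 3 lower, together 44 of 44. Over all genes 86.1% were called, 44.7% higher and 41.4% lower, of 18098 tested. The median log2 difference was 2.83, and 0.05 over all genes. Sv2c had the widest gap, at 81.3 to 111 CPM in flow-through and 0.782 to 2.28 CPM in CD45 libraries (log2 change of 5.76 ± 0.16 with an edgeR adjusted p of 8.98e-15). Syt4 (5.31 ± 0.27), Unc13c (5.11 ± 0.26), Rims2 (4.65 ± 0.24) and Sv2a (4.62 ± 0.21) followed. At the other end, Ppfia4 was higher in the CD45 fraction, at 3.37 to 6.73 CPM in flow-through and 8.68 to 25.7 CPM in CD45 libraries (log2 change of -2.11 ± 0.20 with an edgeR adjusted p of 6.16e-08). It was the only member whose CD45 libraries all exceeded its flow-through libraries.

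Several members were closer between fractions. Ppfia1 lay at 64.5 to 88.4 CPM in flow-through and 61.4 to 76.5 CPM in CD45 libraries, and Vamp1 at 13.8 to 19.1 CPM and 14.2 to 17.7 CPM. Their calls as lower in the flow-through (-0.34 ± 0.07 for Ppfia1 and -0.52 ± 0.09 for Vamp1) came with TMM scaling, which sets library sizes by the bulk of genes. With library totals alone, which moved the median of all genes to 0.58, the values were 0.19 and 0.01, so no direction is given for these genes. Vamp2 (0.83 ± 0.07), Unc13b (0.71 ± 0.11), Stx1a (0.88 ± 0.13) and Syt7 (1.28 ± 0.13) were modestly higher in the flow-through. Vamp2, a vesicle SNARE that also works outside neurons, lay at 65.9 to 83.7 CPM in the CD45 libraries and was the highest member there per kilobase (18.8). Syt11, known in macrophages and microglia as well as in neurons, was next at 7.95 per kilobase.

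**Figure D4:**
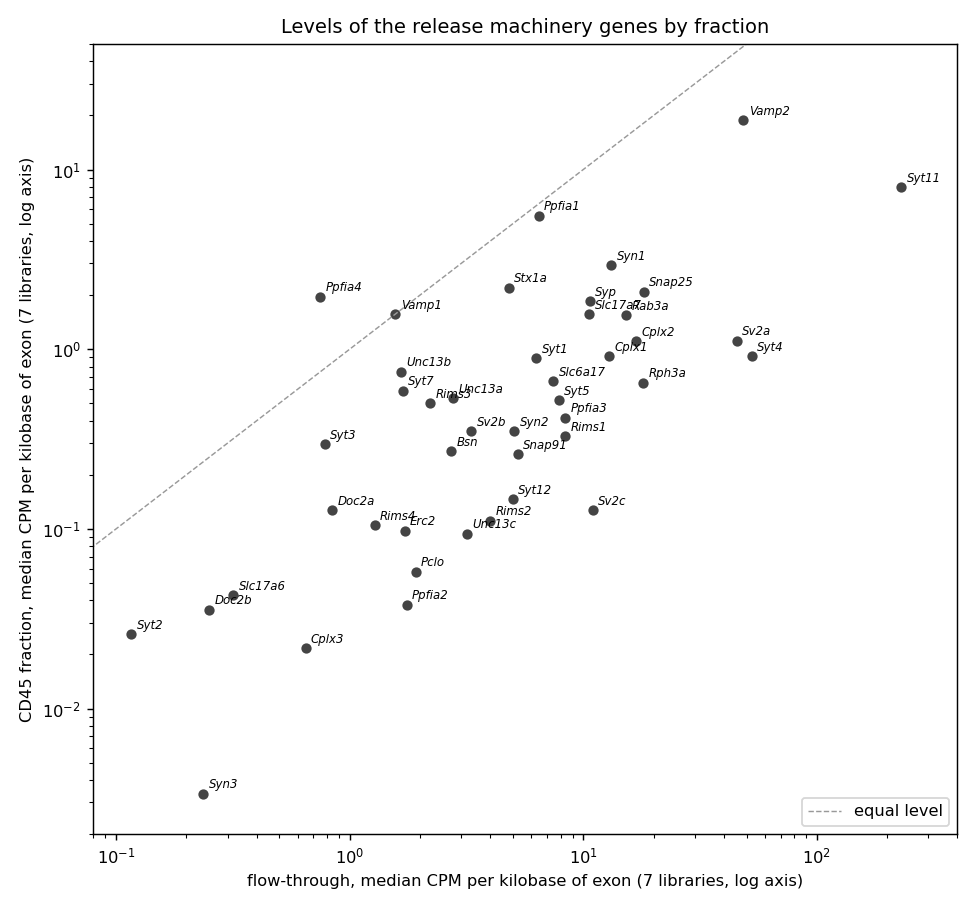
Median CPM per kilobase of exon over 7 libraries in the flow-through (x axis, log scale) and in the CD45 fraction (y axis, log scale) for the 44 members, with a dashed line at equal levels. Ppfia4 lies above the line, Ppfia1 and Vamp1 lie close to it and the other members lie below it.

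In the CD45 fraction no member passed the genotype test. Of the 44 members 39 were tested, since Syt2, Cplx3, Syn3, Doc2b and Slc17a6 had too few counts. Doc2a, Ppfia2, Rims4, Syt12 and Unc13c passed the filter on low counts only through their KO libraries, so higher KO values were favoured for these 5, and the other 34 passed it in the 3 WT libraries alone. EdgeR called 0 of the 39 and 0 of all 15660 genes. An unadjusted p under 0.05 was found for 4 of the 34 and 2 of the 5, beside 4.43% of all genes. DESeq2 also called 0 members, with 1 of all genes higher and 8 lower. The libraries of KO and WT overlapped in each of the 39, where 2.92% of all genes were separated with KO higher and 2.16% with KO lower. Fold changes were above 0 in 30 of the 34 (54.5% of all genes), with a median of 0.55, and in 5 of the 5, beside a median of 0.02 for all genes.

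Snap25 showed the spread, with 9.89, 60.9, 23.2 and 14.2 CPM in KO libraries, against 7.82, 16.4 and 9.02 CPM in WT libraries. KO replicate 2 was far above the rest, and the fold change was not called (log2 change of 1.26 ± 0.67 with an edgeR adjusted p of 0.974). Slc17a7 had 4.37, 25.4, 9.16 and 15.2 CPM in KO libraries, against 2.68, 8.44 and 6.55 CPM in WT libraries (log2 change of 1.17 ± 0.63 with an edgeR adjusted p of 0.974). The smallest p among the members was that of Sv2b, with 2.01, 11.9, 4.75 and 5.51 CPM in KO libraries, against 1.44, 2.93 and 1.77 CPM in WT libraries (log2 change of 1.53 ± 0.55 with an edgeR adjusted p of 0.974). In all 3 genes KO replicate 2 was the highest library and WT replicate 1 the lowest. Syt5 (1.30 ± 0.52), Syt7 (0.55 ± 0.24) and Syn2 (1.45 ± 0.62) were the others of the 34 with an unadjusted p under 0.05, each with an edgeR adjusted p of 0.974. Doc2a (1.72 ± 0.66) and Ppfia2 (1.44 ± 0.56), with the same adjusted p, are among the 5 that were tested only because of their KO libraries. The 3 members with the highest level per kilobase in the CD45 fraction, Vamp2 (0.02 ± 0.10), Syt11 (0.03 ± 0.20) and Ppfia1 (-0.06 ± 0.08), had log2 changes near 0. Ppfia4 had 25.7, 12.9, 11 and 22.2 CPM in KO libraries, against 12.4, 8.68 and 16 CPM in WT libraries (log2 change of 0.51 ± 0.33 with an edgeR adjusted p of 0.974).

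The 15 neuron markers went with these differences. They summed to 58.9, 169, 102 and 130.1 CPM in the KO and 67.6, 75.9 and 98.5 CPM in the WT libraries of the CD45 fraction. They had fold changes above 0 in 15 of 15 with none called, and were highest in KO replicate 2. That library was also the highest for the 8 endothelial markers, at 493 CPM, against 318 to 343.5 CPM in WT libraries. The same held for the 9 astrocyte markers, at 228.5 CPM, against 150.5 to 182 CPM in WT libraries. The 8 oligodendrocyte markers were highest in WT replicate 3, at 1520 CPM, with 709 CPM in KO replicate 2. The 8 calcium sensors summed to 13, 46.6, 21.5 and 27.4 CPM in KO and 9.59, 15.8 and 20.4 CPM in WT libraries, and KO replicate 1 lay among the WT libraries in this list and below them in the neuron markers. In the active zone group the order differed, with 143, 141, 117 and 147 CPM in KO and 114, 117 and 134 CPM in WT libraries, so that KO replicate 4 was highest and KO replicate 1 above KO replicate 2 and all WT libraries. Most of this sum was Ppfia1, Ppfia4 and Unc13b. They had 76.5, 25.7 and 21.2 CPM in KO replicate 1, the highest CD45 library of each, and 69.4, 12.9 and 15.6 CPM in KO replicate 2. The order of this group therefore rests largely on these genes. The median log2 change of the 39 members tested with all libraries was 0.56. Over the 34 that passed the filter in the WT libraries alone it was 0.55. In the 7 fits without 1 library, the median of the members tested ran from 0.37, without KO replicate 2, to 0.86, without WT replicate 3. The filter was applied anew in each of these fits, so the members tested can differ between them. Like the 0.56, their medians can include members that passed only through KO libraries. None of the 15 neuron markers was at 0 in the CD45 fraction. Their part in the fold changes there was not tested.

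**Figure D5:**
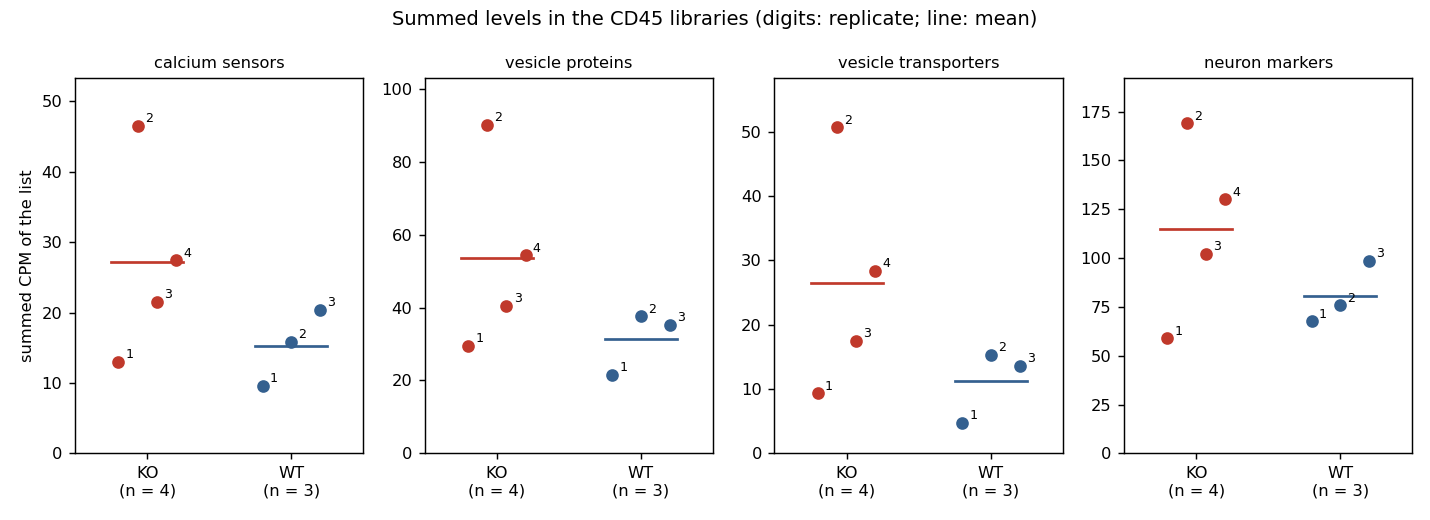
Summed CPM (y axis) of 3 of the 6 groups of members (calcium sensors, vesicle proteins and transporters) and of the 15 neuron markers in each CD45 library, 4 KO in red and 3 WT in blue, with replicate numbers beside the points and a line at each mean. KO replicate 2 is the highest point in each of these panels, at 46.6 CPM for the calcium sensors and 169 CPM for the neuron markers, and KO replicate 1 lies among or below the WT points.

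Whether the genotype effect differed between the fractions was tested as an interaction in the 14 libraries, with libraries that may share an animal treated as independent. Of the 44 members 0 were called, as were 0 of all 18098 genes, and 5 members had an unadjusted p under 0.05, beside 7.21% of all genes. The smallest p was that of Rims3, whose flow-through effect exceeded its CD45 effect by 1.06 ± 0.25 on the log2 scale (edgeR adjusted p = 0.309). Its log2 change was 0.77 ± 0.12 in the flow-through and -0.27 ± 0.24 in the CD45 fraction, where it had 3.61, 5.63, 3.72 and 3.14 CPM in KO libraries, against 3.99, 5.39 and 4.9 CPM in WT libraries. DESeq2 called Rims3 (adjusted p = 0.0178) and no other member, with 42 of all genes higher and 4 lower. In edgeR's order the next were Ppfia3 (1.19 ± 0.37), Stx1a (0.66 ± 0.25), Ppfia2 (-1.20 ± 0.49) and Syt7 (0.54 ± 0.25). The rise of the release machinery in the flow-through is therefore not shown to be particular to that fraction.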

How the data were processed

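Messenger RNA libraries were prepared with a strand-keeping kit, per the labels' protocols. The authors deposited raw whole-number counts per gene, a table for each fraction. Trim Galore, FastQC and STAR 2.7.9a with GRCm38 are named in the submitters' processing notes. The counter, whether it used strand, and its annotation are unknown here, so genes that overlap on opposite strands are uncertain. Companion tables with DESeq2 in their names, a normalized form, were not used.

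GENCODE M21 gave names, exon lengths, GC content and exon overlaps (33130 of 33223 identifiers matched), and RefSeq (GRCm38.p6) the promoters. Groups follow the labels, and replicate numbers follow accession order and pair nothing. No library repeated another: in 18 pairs within groups, chi-square per degree of freedom ran from 9.42 to 49.8. The main test was edgeR 4.0.16 in R 4.3.3 (quasi-likelihood, robust, TMM scaling), after filterByExpr with minimum counts of 10 per library and 15 in all. It was also run on simulated counts. These had the same spread setting for every gene, so they do not show how the test performs on these libraries. SE is the absolute log2 change over the root of F. P-values were adjusted over all genes tested. Members, lists and tests were chosen with earlier results of these data known. All members may be named, and up to 6 genes with the smallest p of each list of further release and vesicle cycle genes. The marker and activity genes named in the genotype comparison were picked after their values were seen. Some called genes of these lists are not reported here by name. Alternatives were DESeq2 1.42.0 and other scalings, filters and sets of libraries.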

Additional observations from a re-analysis of the deposited data

Results flagged for a closer look

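In 5 of 83 groups of 4 libraries tested, 1 library lay farther from the others than Dixon's 95% critical value of 0.829 of the range allows. Chance gives about 1 in 20 groups, and 6.02% were found. Rims2 was low in flow-through WT replicate 1, at 35.9 CPM, with the other 3 at 41.3 to 41.6 CPM. Unc13c was low in CD45 KO replicate 1, at 0.287 CPM, with the other 3 at 0.825 to 0.875 CPM. Erc2 was high in CD45 KO replicate 2, at 2.86 CPM, with the other 3 at 0.702 to 1.03 CPM. Sv2c was low in flow-through WT replicate 1, at 81.3 CPM, with the other 3 at 104 to 107 CPM. Doc2a was low in flow-through WT replicate 3, at 1.24 CPM, with the other 3 at 2.21 to 2.36 CPM. Leaving out flow-through WT replicate 3 left Doc2a uncalled, as did each of the other leave-outs. Rims2 remained called without flow-through WT replicate 1.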

How the results depend on the processing

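No paired analysis was possible because the replicate numbers come from accession order and pair no libraries. In the flow-through the members called higher (19) numbered 10 to 18 when 1 library was left out, 1 in the joint fit of 14 libraries and 0 when the odd library, the flow-through WT one that goes against its label, was entered under it. The fit with the odd library mixed fractions within a group and cannot show how stable the calls are. No member called between genotypes in the flow-through changed sign in any alternative. With the other scalings, no filter, DESeq2 or the GC and length trend removed, 14 to 20 members were called. All genes called higher (235) numbered 117 to 253 with 1 library left out, 492 with no filter, 367 with DESeq2, 26 in the joint fit, 141 with the trend removed and 0 with the odd library as labelled, and genes called lower (25) numbered 13 to 34, 137 with no filter, 69 with DESeq2, 4 in the joint fit and 0 with the odd library. In the CD45 fraction no member was called in any alternative. Over all genes DESeq2 called 1 higher and 8 lower, and leaving out 1 library gave 0 higher and 0 to 1 lower. In the interaction DESeq2 called 1 member higher, 42 of all genes higher and 4 lower, 15 genes were higher with no filter, 0 to 2 with 1 library left out and 1 with the odd library placed with CD45 WT. Between fractions, library totals without TMM scaling, an alternative chosen after seeing the data, left 1 member lower in the flow-through in place of 3. Ppfia1 turned to a log2 fold change of 0.19 and Vamp1 to 0.0055 there, and upper-quartile scaling left Ppfia1 uncalled at -0.09. These scalings moved the median of all genes to 0.58 and 0.31. The cause of the other changes was not tested, except that the fits without a library have fewer samples. Low counts limit Cplx3, Doc2b, Slc17a6, Syn3 and Syt2 in the CD45 fraction, where none exceeded 15 counts in a library.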

Other observations

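The library labelled flow-through WT replicate 5 had levels of the release machinery like those of the CD45 libraries. Its 44 members summed to 470.4 CPM, while the 7 flow-through libraries had 2975 to 3926 and the 7 CD45 libraries 304 to 562 CPM. Its 8 calcium sensors summed to 32.9 CPM and its 15 neuron markers to 158 CPM, both within the range of the CD45 KO libraries and above that of the CD45 WT libraries. Snap25 lay at 40.1 CPM and Slc17a7 at 22 CPM in it.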
